A study of Homo sapiens with 2 samples.

Results

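The Toll-like receptors and the MyD88 pathway were examined in a genome-scale CRISPR/Cas9 knockout screen through 107 single guide RNAs (sgRNAs) against 27 genes, out of 74336 distinct sgRNAs against 19112 genes. The sgRNAs were taken by gene symbol from a list of 28 genes that covers the receptors TLR1 to TLR10, their co-receptors and transporter, the adaptors, the IRAK kinases, TRAF6, the TAK1 complex and a pair of interferon regulatory factors. Of the listed genes, TAB2 was not analysed here. TAB1 had 3 sgRNAs and each of the other 26 genes had 4.

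The cells were A673, a human Ewing sarcoma line that produces its own EWSR1::FLI1 fusion protein with the red fluorophore tdTomato attached, together with Cas9 and, as a control, the green fluorophore EGFP. The reporter line was 1 knock-in clone. The study asked which knockouts lower EWSR1::FLI1, the driver fusion of this cancer, and sorted cells with low tdTomato and high EGFP, about 7% of the population. Both populations carried the Brunello sgRNA pool, were infected at an MOI of 0.3 and had 12 days in puromycin at 2 μg/ml and 3 days without it. One population was left unsorted, and the other was sorted and then expanded.

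Each population gave 1 library, so no difference has a replicate check, and tests on the reads compare these 2 libraries, not the conditions. The unsorted library held 10483144 reads and the sorted library 1455322, so that 1 sorted read corresponds to 7.2 unsorted reads. The odds ratio of an sgRNA is its odds of being read in the sorted library over those in the unsorted one. Enriched here means an odds ratio of 2 or more and an adjusted p under 0.05, the rule of the study's methods (Fisher's exact test, Benjamini-Hochberg over all sgRNAs). Lowered means an odds ratio of 0.5 or less with the same limit on p. Intervals are exact 95% intervals and cover counting error only, because PCR reads without molecular identifiers are not independent molecules. For an sgRNA with 0 sorted reads, "at least N-fold lower" sets its unsorted share against a floor of 3 sorted reads in this library. This value is a ratio to the floor and not a confidence limit, and the interval of the odds ratio can allow a smaller fall.

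Toll-like receptors are innate immune receptors that recognize microbial lipids, proteins and nucleic acids at the cell surface or in endosomes. On binding a ligand, most of them recruit the adaptor MyD88, which assembles IRAK kinases and the ubiquitin ligase TRAF6, and TRAF6 in turn activates the kinase TAK1 (MAP3K7) and NF-κB. TLR3 signals through the adaptor TRIF (TICAM1) to the interferon regulatory factors, and TLR4 uses both routes. These proteins are best known in cells of the immune system.

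The sgRNAs that carry the results are shown 5′ to 3′, as DNA, with the 12 bases next to the PAM, the part of a guide that tolerates mismatches least, in capitals. The letters A to D name the sgRNAs of a gene in the order of the deposited table. Shown first are all sgRNAs of the genes with at least 2 enriched sgRNAs (TLR2, TLR7, TIRAP and IRAK2), since the agreement among sgRNAs of a gene rests on them.
TLR2 A: aaatccttACAAAACCCTAG
TLR2 B: ctttaaacTCCATTCCCTCA
TLR2 C: tggaaacgTTAACAATCCGG
TLR2 D: tactagtaTTGAAAATCAGT
TLR7 A: cagctactAGAGATACCGCA
TLR7 B: aatggggcATTATAACAACG
TLR7 C: cagtctgtGAAAGGACGCTG
TLR7 D: gaagattaTGTAATGGCGAG
TIRAP A: cccacacaTGCGAGTGACAG
TIRAP B: tcaccagcCATCTTGCCTAG
TIRAP C: ggcagtgcTGCCTTCCAAGT
TIRAP D: ggacactaTAGCGCCGCCTG
IRAK2 A: gtcagccgCGTATCTGCCAG
IRAK2 B: ttgaatcaGACGAAGTGGGG
IRAK2 C: aaaaccgcAAAATCAGCCAG
IRAK2 D: cagaccatGCAGGTACTCGA

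The next set holds all sgRNAs of MYD88, IRAK4 and TRAF6, the core that nearly all of the receptors share.
MYD88 A: ctgctctcAACATGCGAGTG
MYD88 B: ctcgagcaGTCGGCCTACAG
MYD88 C: accacactTGATGACCCCCT
MYD88 D: ggctgagaAGCCTTTACAGG
IRAK4 A: ctcatgtgCCAAGAAAGTGG
IRAK4 B: cctgggagCAAAAGACTCGC
IRAK4 C: tgtaaacaTATACTAAGCAG
IRAK4 D: ctacgtaaATAACACAACTG
TRAF6 A: atggtgaaATGTCCAAATGA
TRAF6 B: gaagcagtGCAAACGCCATG
TRAF6 C: tgagcgttATACCCGACTCT
TRAF6 D: acaaaagaTGATAGTGTGGG

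The last set holds the sgRNA with the largest odds ratio of other member genes, to show the single sgRNAs by which most of these genes reached the enriched call.
TLR1 A: gacaacttGGTGTATAGACA
TLR3 C: ccaattgcGTGAAAACACCC
TLR4 B: gctccagtTGACACTGAGAG
TLR6 B: tattaactGATATGTTCACT
TLR8 B: aacttatcGACTATCAACTT
TLR9 C: gttgttccGTGACAGATCCA
TLR10 B: taaagagaCTATTCATCTGA
UNC93B1 C: tgtagataAAGAAAGGCACG
TICAM1 C: gatgaggcCCGAAACCGGTG
TICAM2 D: atttagatGATGCTGTAAAT
IRAK1 A: atttatccCACAGAAAGACC
IRAK3 C: attgaaaaGTATGTAGACCA
IRF3 A: gaggtgacAGCCTTCTACCG
IRF7 A: gatgcactCACCTTGCACCG
TAB3 D: attggattTGTACTATACCG

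As a set, the sgRNAs against the Toll-like receptor and MyD88 pathway were enriched about as often as the library as a whole, with 22 of 107 enriched (20.6%, against 20.8% of all sgRNAs). TLR2, the receptor for bacterial lipopeptides, stood apart from the other members with all 4 of its sgRNAs enriched. For MYD88, TLR5, CD14, MAP3K7 and TAB1 no sgRNA had a single sorted read. Lowered sgRNAs numbered 59 of 107 (55.1%, against 51.7% of all sgRNAs). Of the member sgRNAs 59 had 0 sorted reads (55.1%, against 57.6%), 53 of them lowered and 6 too scarce for that call, and the 6 other lowered sgRNAs kept some sorted reads. On a log2 scale, the median ratio of the shares in the sorted and the unsorted library, with a pseudocount of 0.5 reads, was −3.26 over the members and −2.82 over all sgRNAs.

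Counted by gene, the members again lay near the library. At least 1 sgRNA was enriched for 16 of 27 genes (59.3%, against 59.3% of all genes). At least 2 were enriched for 4 of 27 (14.8%, against 18.8%), namely TLR2, TLR7, TIRAP and IRAK2. At least 4 were enriched for 1, TLR2, where the share of all genes was 0.157%. TLR2 is among the candidates that the study itself drew from these libraries, so its count is not independent evidence. For 5 of 27 genes every listed sgRNA had 0 sorted reads (18.5%, against 14.6%). An enriched and a lowered sgRNA stood side by side in 14 of 27 genes (51.9%, against 53.8%), so that disagreement among sgRNAs of a gene was as common here as elsewhere in the library. Without TLR2, a set looked at after its values were seen, 18 of 103 sgRNAs were enriched (17.5%).

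The summed reads were close to those of the pool as well. The 107 sgRNAs held 17649 unsorted and 2605 sorted reads, a ratio of library shares of 1.06. Without TLR2 the ratio was 0.961. The members therefore kept their share of the pool while 59 of their sgRNAs were not seen after the sort.

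Of the receptors at the cell surface, TLR2 had the highest odds ratios. TLR2 D rose from 43 unsorted to 84 sorted reads, which gave an odds ratio of 14.1 (interval 9.63 to 20.8; by Fisher's exact test, adjusted p = 6.57e-44). TLR2 A went from 76 to 101 reads, which gave an odds ratio of 9.57 (7.04 to 13.1). For TLR2 B, with 95 unsorted and 49 sorted reads, the odds ratio was 3.72 (2.58 to 5.30). TLR2 C, with 195 and 72 reads, had the lowest at 2.66 (2.00 to 3.50; by Fisher's exact test, adjusted p = 2.33e-10). The odds ratios of A and D overlap in their intervals and lie above those of B and C, so the enrichment of TLR2 rested on all 4 sgRNAs but differed in size between them. The 4 sgRNAs together went from 409 to 306 reads, a ratio of shares of 5.39, and the median log2 ratio was 2.58. Under a negative binomial test that takes its spread from sgRNAs against olfactory receptors, 0 of the 4 were enriched, and of all 107 member sgRNAs 1 was.

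TLR1 and TLR6, the partners with which TLR2 forms lipopeptide receptors, did not share this pattern. TLR1 had 1 enriched sgRNA, A, with 182 unsorted and 78 sorted reads (odds ratio 3.09, 2.34 to 4.05), and its B, C and D had 23, 50 and 11 unsorted reads and 0 sorted. Only TLR1 C of these was lowered, by at least 2.31-fold, and for D the depth could not show a loss, since 11 unsorted reads correspond to 1.53 sorted ones. TLR6 B was enriched at the very limit of the call, with 169 unsorted and 47 sorted reads and an odds ratio of 2.003 (1.42 to 2.78). TLR6 A had 384 and 74 reads (odds ratio 1.39), TLR6 D 436 and 42 (0.694), and TLR6 C 298 and 0, which is at least 13.8-fold lower. The sgRNAs of TLR6 thus spanned enrichment, no call and loss, from 169 to 436 unsorted reads.

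TLR10, a receptor of the same subfamily, had 0 enriched sgRNAs, with 40 sorted against 239 unsorted reads for B (odds ratio 1.21, 0.840 to 1.69) and 0 sorted reads for A, C and D, from 85, 63 and 47 unsorted. TLR4, the receptor for bacterial lipopolysaccharide, was alike: TLR4 B had 322 unsorted and 39 sorted reads (0.872, 0.609 to 1.22), and A, C and D went from 60, 43 and 34 reads to 0. For both genes the sgRNA with the most unsorted reads was the one without a call, and the other 3 were lowered. TLR5, the receptor for flagellin, lost all 4 sgRNAs, with 107, 129, 171 and 49 unsorted reads for A to D. The loss of TLR5 C was the largest of these, 7.91-fold against the floor. The upper limit of the interval of its odds ratio was 0.157 (by Fisher's exact test, adjusted p = 1.59e-09). Over the 6 surface receptors 6 of 24 sgRNAs were enriched (25.0%, against 20.8% of all sgRNAs), 4 of them those of TLR2.

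The co-receptors of TLR4 for lipopolysaccharide gave different pictures, a loss of all sgRNAs for CD14 and a mixed one for LY96. CD14, which hands the lipid to the receptor, had 52, 37, 122 and 50 unsorted reads for A to D and 0 sorted reads throughout. All 4 were lowered, by at least 5.65-fold for C and at least 2.41-, 1.71- and 2.31-fold for A, B and D. For A, B and D the upper limits of the odds ratio were 0.530, 0.755 and 0.552, and Bonferroni adjustment removed their calls. LY96 (MD-2), the lipid-binding partner of TLR4, kept sorted reads for all 4 sgRNAs. LY96 C was enriched, with 258 unsorted and 96 sorted reads (odds ratio 2.68, 2.10 to 3.40; by Fisher's exact test, adjusted p = 1.63e-13). LY96 A had 308 and 75 reads (1.75), D 196 and 19 (0.698) and B 337 and 17 (0.363, lowered). LY96 is with TLR2 and TLR3 one of the members in which no sgRNA was lost, and its sgRNAs had 196 to 337 unsorted reads, where the median over all sgRNAs was 103.

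Each of the endosomal receptors and UNC93B1, which carries them to the endosome, had at least 1 enriched sgRNA, as did 59.3% of all genes, and 6 of their 20 sgRNAs were enriched (30.0%, against 20.8% of all sgRNAs). TLR7, a sensor of single-stranded RNA, had a pair of them. TLR7 B went from 47 unsorted to 48 sorted reads, which gave an odds ratio of 7.36 (4.82 to 11.2; by Fisher's exact test, adjusted p = 1.09e-18). TLR7 C went from 77 to 49, which gave an odds ratio of 4.58 (3.14 to 6.64). TLR7 A and D had 0 sorted reads, from 72 and 188 unsorted, and D was at least 8.70-fold lower. TLR7 was therefore split evenly between enriched and lowered sgRNAs, and the most abundant of the 4 was among those lost.

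TLR8, the neighbouring sensor of single-stranded RNA, had 1 enriched sgRNA, B, with 109 unsorted and 33 sorted reads (odds ratio 2.18, 1.43 to 3.24). Its A, C and D had 106, 21 and 241 unsorted reads and 0 sorted, and D was at least 11.2-fold lower. TLR9, the sensor of unmethylated CpG DNA, had the same arrangement: TLR9 C was enriched with 88 and 31 reads (2.54, 1.63 to 3.86), and A, B and D went from 27, 95 and 109 reads to 0. Each gene thus had 1 enriched sgRNA, not far above the limit of 2, and at least 2 that were lowered.

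TLR3, the sensor of double-stranded RNA, kept sorted reads for every sgRNA. TLR3 C was enriched with 194 unsorted and 66 sorted reads (odds ratio 2.45, 1.82 to 3.26), while A had 203 and 39 (1.38, 0.956 to 1.96). TLR3 B, with 393 and 23 reads, and TLR3 D, with 321 and 10, were lowered, with odds ratios of 0.422 and 0.224. The sgRNAs of TLR3 covered a range from 0.224 to 2.45 without a loss. UNC93B1 C had the largest odds ratio of all members, 50.4, but with 4 unsorted and 28 sorted reads its interval ran from 17.6 to 198. UNC93B1 A had 173 and 44 reads (1.83, 1.28 to 2.56), and B and D went from 52 and 61 reads to 0.

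Among the adaptors, MYD88 had 0 enriched sgRNAs, and TIRAP, which bridges TLR2 and TLR4 to MyD88, had the most, 2 of 4, beside 2 lowered. All 4 sgRNAs of MYD88 had 0 sorted reads, from 84, 94, 243 and 98 unsorted reads for A to D, and all 4 were lowered. Against the floor, MYD88 C was 11.2-fold lower, and A, B and D were 3.89-, 4.35- and 4.53-fold lower. For C the upper limit of the interval of the odds ratio was 0.110 (by Fisher's exact test, adjusted p = 1.76e-13). The calls of A, B and D were lost with Bonferroni adjustment. The negative binomial test named for TLR2 called 0 of the 74336 sgRNAs lowered, but at its dispersion even 0 sorted reads could not reach that call. That test therefore has no bearing on the losses. The 4 sgRNAs together had 519 unsorted reads, a share 24.0-fold that of the floor in the sorted library. Before the sort 3 of the 4 sgRNAs of MYD88 were close to the library median of 103 reads. Of all sgRNAs 57.6% had 0 sorted reads, and the reason for the loss of those of MYD88 was not tested.

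TIRAP B had the most reads of any member in both libraries, 669 unsorted and 248 sorted, an odds ratio of 2.67 (2.30 to 3.09; by Fisher's exact test, adjusted p = 1.70e-32). TIRAP A went from 158 to 95 reads, which gave an odds ratio of 4.33 (3.32 to 5.62). TIRAP D had 2 sorted reads from 502 unsorted, an odds ratio of 0.0287 (0.00347 to 0.104), and C had 0 from 261, at least 12.1-fold lower. The enriched and the lowered sgRNAs of TIRAP were all well counted, with at least 158 unsorted reads each, so the spread between them exceeded counting error by far.

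TICAM1 (TRIF), the adaptor of TLR3 and TLR4, had 1 enriched sgRNA, C, with 24 unsorted and 27 sorted reads (odds ratio 8.10, 4.50 to 14.7). TICAM1 D, with 410 unsorted and 0 sorted reads, was at least 19.0-fold lower, A went from 76 to 0, and B had 235 and 42 reads (1.29, 0.904 to 1.79). For TICAM1 the scarcest sgRNA rose and the most abundant was lost. TICAM2 (TRAM), which links TLR4 to TRIF, had 1 enriched sgRNA, D, with 108 and 45 reads (3.00, 2.07 to 4.29). TICAM2 B had 165 and 15 reads (0.655, 0.358 to 1.11), C 258 and 16 (0.447, lowered) and A 134 and 0. Over the 4 adaptors 4 of 16 sgRNAs were enriched (25.0%, against 20.8% of all sgRNAs) and 10 lowered (62.5%, against 51.7%).

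The IRAK kinases act directly after MyD88. IRAK4, the first kinase of the complex, had 9 sorted reads in all, those of IRAK4 A from 109 unsorted (odds ratio 0.595, 0.265 to 1.17). IRAK4 B, C and D went from 177, 80 and 184 reads to 0 and were lowered, D by at least 8.52-fold. IRAK2 was the kinase with the most enriched sgRNAs. IRAK2 A had 294 unsorted and 127 sorted reads, which gave an odds ratio of 3.11 (2.51 to 3.84; by Fisher's exact test, adjusted p = 1.50e-21). IRAK2 C lay at the limit with 362 and 101 reads, which gave an odds ratio of 2.01 (1.60 to 2.51). IRAK2 D, with 236 and 33 reads, had an odds ratio of 1.01 (0.678 to 1.45), and B had 16 unsorted reads and 0 sorted, too few for a call. IRAK2 was the only member gene with at least 2 enriched sgRNAs, apart from TLR2, in which none was lowered.

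IRAK1, which IRAK4 phosphorylates, had 1 enriched sgRNA, A, with 166 unsorted and 79 sorted reads (odds ratio 3.43, 2.59 to 4.51). IRAK1 B and C went from 266 and 357 reads to 0 and were at least 12.3- and 16.5-fold lower, and D had only 16 unsorted reads and 0 sorted. IRAK3 (IRAK-M), which restrains the pathway, had 0 enriched sgRNAs, and its D, from 453 reads to 0, was at least 21.0-fold lower, the largest such ratio among the members. IRAK3 C had 254 and 27 reads (0.766, 0.495 to 1.14), and A and B went from 91 and 31 to 0. The kinases together had 3 of 16 sgRNAs enriched (18.8%, against 20.8% of all sgRNAs) and 8 lowered (50.0%, against 51.7%).

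TRAF6, the ubiquitin ligase downstream of the kinases, had an sgRNA with one of the largest odds ratios among the members beside 3 that were lost. TRAF6 B rose from 35 unsorted to 83 sorted reads, which gave an odds ratio of 17.1 (11.4 to 26.1; by Fisher's exact test, adjusted p = 1.34e-46). TRAF6 A, C and D went from 236, 46 and 251 reads to 0, and D was at least 11.6-fold lower. Summed over its 4 sgRNAs, TRAF6 had 568 unsorted and 83 sorted reads, a ratio of shares of 1.05 that came from 1 sgRNA. Over MYD88, IRAK4 and TRAF6, the core of the pathway, 1 of 12 sgRNAs was enriched and 10 were lowered, all 10 with 0 sorted reads. Of all sgRNAs 20.8% were enriched, 51.7% lowered and 57.6% at 0 sorted reads.

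Among the sgRNAs of the TAK1 complex, which TRAF6 activates, 0 were enriched, against 20.8% of all sgRNAs. They were 4 of MAP3K7, 3 of TAB1 and 4 of TAB3, and TAB2 was not analysed. MAP3K7, the kinase itself, went from 165, 82, 94 and 134 unsorted reads for A to D to 0, with all 4 lowered and A by at least 7.63-fold. TAB1, its activating subunit, went from 61, 117 and 163 reads for A to C to 0, with all 3 lowered. TAB3, the subunit that binds ubiquitin chains, differed: TAB3 B had 317 and 73 reads (odds ratio 1.66, 1.27 to 2.15), D 140 and 33 (1.70, 1.12 to 2.50), C 312 and 39 (0.900, 0.628 to 1.26) and A 55 and 0. Both MAP3K7 and TAB1 were thus at 0 in the sorted library, as were 14.6% of all genes, while 3 of the 4 sgRNAs of TAB3 kept reads.

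The interferon regulatory factors, the transcription factors at the end of the TRIF route and of endosomal signaling, also differed from each other. IRF3 A rose from 72 to 144 reads, which gave an odds ratio of 14.4 (10.8 to 19.4), with the smallest adjusted p of all members (2.50e-75, Fisher's exact test). IRF3 C, with 590 and 78 reads, was close to 1 (0.952, 0.742 to 1.21), B fell from 251 to 3 reads (0.0861, 0.0176 to 0.254), and D went from 237 to 0. The 4 sgRNAs of IRF3 therefore gave odds ratios from 0 to 14.4. IRF7 had 0 enriched sgRNAs, but A and B lay just under the limit, with 92 and 24 reads (1.88, 1.15 to 2.97) and 199 and 47 reads (1.70, 1.21 to 2.35). IRF7 D had 93 and 11 reads (0.852), and C went from 44 to 0.

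The enriched and the other member sgRNAs were compared for features of their sequences and for starting abundance, as a description. The median GC content was 42.5% for the 22 enriched, 45.0% for the 59 lowered and 50.0% for the 26 other sgRNAs, where that of all sgRNAs was 50.0%. GC content ran from 25.0% (TLR2 D, TLR4 C, TLR6 B and TICAM2 D) to 75.0% (UNC93B1 D). A run of 4 T, a stop signal for the promoter that drives sgRNAs, was found in 0 of the 107 and in 0 of all 74336 sgRNAs. The unsorted count had a median of 108.5 in the enriched group, of 107 in the lowered group and of 197.5 in the group without a call. By the median, enriched and lowered sgRNAs thus started from similar abundance, while those without a call were more abundant. The group without a call was mixed, since 6 of its 26 sgRNAs had under 30 unsorted reads. A call also depends in part on the unsorted count itself. The 48 members with sorted reads had a median of 43 of them, against 40 in the library, and the 22 enriched ones ranged from 27 to 248.

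The reads were mapped with up to 3 mismatches allowed, and reads with a single match were kept, which bears on sgRNAs of related receptors. No member lay within 3 mismatches of any other listed sgRNA, whereas 2072 of the 74336 did (2.79%). The nearest neighbours were 4 mismatches away or more. A read that carries mismatches can still lie within 3 of both sgRNAs of a pair 4 apart. Such a read has more than a single match and would be dropped, not counted for the wrong sgRNA. Neither this loss nor mixing of reads was tested. For TLR1, TLR6 and TLR10, whose genes are close relatives, the nearest sgRNA kept was in each case one against an unrelated gene. Where several were equally near, only the first was kept.

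Other genes around the pathway, 47 genes with 185 sgRNAs, gave 42 enriched sgRNAs (22.7%) and 94 lowered (50.8%), again near the library. At least 2 sgRNAs were enriched for 10 of the 47 genes (21.3%, against 18.8%), and none had 4. Among the IL-1 and IL-18 family receptors, which also signal through MyD88, 8 of 24 sgRNAs were enriched (33.3%, against 20.8% of all sgRNAs). IL1RL2, the IL-36 receptor, had 3 of them, with odds ratios of 6.22, 4.99 and 4.57, and its last sgRNA went from 294 reads to 0. For IL1R1, the IL-1 receptor, the enriched pair had odds ratios of 2.40 and 2.28 beside a loss from 377 reads to 0. An enriched and a lowered sgRNA thus stood side by side in both genes, as in 53.8% of all genes.

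In the branch that activates IRF factors, with cytosolic sensors of nucleic acids, 11 of 44 sgRNAs were enriched (25.0%, against 20.8%) and 4 of 11 genes had at least 2, where the share of all genes was 18.8%. IRF5, a transcription factor downstream of MyD88, had 3, with odds ratios of 3.53, 3.01 and 2.03, and 0.775 for the last. The RNA sensors IFIH1 (MDA5) and DDX58 (RIG-I) had a pair each, with largest odds ratios of 5.10 and 4.38. RIPK1, a kinase that binds TRIF, had a pair with 6.84 and 2.54, and its other sgRNAs had 1.56 and 1.51. RIPK1 thus had no lowered sgRNA, as IRF5 and DDX58 did not, whereas IFIH1 had a pair of lowered ones.

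For NF-κB and the IKK complex 8 of 47 sgRNAs were enriched (17.0%, against 20.8%), with at least 2 for MAP3K14 (NIK), a kinase of the non-canonical NF-κB route, and for its transcription factor RELB. The enriched pair of MAP3K14 had odds ratios of 3.75 and 2.71 and that of RELB 6.87 and 2.92, each beside a lowered pair. IKBKG (NEMO), the scaffold of IKK, had 266 unsorted reads over 4 sgRNAs and 0 sorted, and NFKB2 had 346 and 0. NFKBIE was at 0 as well, from 212 reads. Of the accessory proteins and chaperones of the receptors 7 of 35 sgRNAs were enriched (20.0%), with a pair for CD180, and of the brakes and ubiquitin regulators 8 of 35 (22.9%), with a pair for PELI3. In total 6 of the 47 genes had 0 sorted reads for every sgRNA (12.8%, against 14.6%), the others being IRF1, CNPY4 and SARM1.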

How the data were processed

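The authors extracted the 20-base guide sequences from MiSeq reads, mapped them to the Brunello sgRNAs with Bowtie (1.2.2 per the submitters' processing notes, up to 3 mismatches, reads with a single match kept) and deposited read counts per sgRNA, not normalized. Before sequencing, PCR on genomic DNA ran for 20 cycles in 24 tubes, with a further 15 cycles to add adapters. The deposited table also holds the authors' odds ratios and p-values, which were not used. The genome build was not given in the sources used here, and no coordinates are printed.

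Member rows were taken by the symbol stored with each guide, and 3 repeated entries of the library were dropped. Accessions of all 27 genes matched RefSeq annotation of GRCh38.p14 under the same symbol. Fisher's exact test (two-sided) was run on the counts as deposited for all 74336 sgRNAs, with Benjamini-Hochberg adjustment over all, since with 1 library per group no spread between replicates can be fitted. The sample odds ratio is printed with an exact (Clopper-Pearson) 95% interval of the sorted reads among the reads of both libraries, scaled to the library totals. The floor for 0 reads was 3 reads per library. A ratio to the floor is not a confidence limit and leaves out the counting error of the unsorted library. The members, the lists of other pathway genes and the tests were chosen with earlier results of these data known. All members are named, with all sgRNAs shown for genes with at least 2 enriched sgRNAs and for MYD88, IRAK4 and TRAF6, and otherwise the sgRNA with the largest odds ratio. Some sgRNA sequences are not reported here. The steps were tested on simulated data in Python 3.11.15 (scipy 1.17.1, numpy 2.4.6, pandas 2.3.3). The simulated counts for Fisher's exact test held counting error only. They do not show how its calls behave with the wider spread of these data. Alternatives were another odds ratio limit, a minimum of unsorted reads, another scaling, Bonferroni adjustment, thinned reads, another pseudocount and a negative binomial test.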

Additional observations from a re-analysis of the deposited data

How the results depend on the processing

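The count of 22 enriched member sgRNAs ranged from 19 to 29 under an odds ratio above 1, at least 30 unsorted reads, scaling on olfactory receptor sgRNAs, Bonferroni adjustment and unsorted reads thinned to equal depth. Under a negative binomial test, whose dispersion (6.78) came from sgRNAs against olfactory receptors, it was 1, UNC93B1 C, with 0 lowered sgRNAs and 0 genes with at least 2 enriched, TLR2 included. That test called 366 of 74336 sgRNAs enriched (0.492%) and 0 lowered. At this dispersion 0 sorted reads could not be called lowered at any unsorted count in the library, so the absence of lowered calls says nothing about losses. With Bonferroni adjustment the lowered member sgRNAs numbered 25 (23.4%, against 23.5% of all sgRNAs), and TLR6, TLR8 and TLR9 lost their enriched sgRNA. With an odds ratio above 1, 9 genes had at least 2 sgRNAs, adding IRF7, LY96, TAB3, TLR6 and UNC93B1 (26.0% of all genes). At least 30 unsorted reads removed the calls of UNC93B1 C and TICAM1 C, and thinning removed those of IRAK2 C and TLR3 C and added IRF7 B, LY96 A, TAB3 D, TLR3 A and UNC93B1 A. The genes with at least 2 enriched sgRNAs after thinning were 5, without IRAK2 and with LY96 and UNC93B1. Thinning left UNC93B1 C and IRAK3 B without unsorted reads and so without a finite odds ratio. The 4 sgRNAs of TLR2 were enriched in each setting other than the negative binomial test. The median log2 ratio of the members was −3.63 with at least 30 unsorted reads (−3.56 for all sgRNAs), −2.81 after thinning (−2.81) and −0.50 with a pseudocount of 5 (−0.32), since it depends on where sgRNAs at 0 are placed. Member sgRNAs with under 21.6 unsorted reads, 5 in number, would have fewer than 3 sorted reads at an unchanged share, so that a loss cannot be shown for them. No paired analysis was possible because each population has 1 library.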

Other observations

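TICAM2 C and TICAM2 D share 7 bases, the last of D being the first of C, the only pair of sgRNAs of 1 member gene among 159 that share at least 7 bases end to end on either strand (0.629%, against 0.473% of such pairs in the library). TICAM2 D was enriched, with an odds ratio of 3.00, and TICAM2 C lowered, with 0.447. Their sites in the genome were not located.

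Of the members without a call, 11 had an odds ratio of at least 1, and 6 of them lay between 1.66 and 1.88, against IRF7 (A and B), TAB3 (B and D), LY96 A and UNC93B1 A.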
